A study of Mus musculus with 2 samples.

Results

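Gabrb1, Gabrb2, Gabrg1 and Gabrg3, which encode beta and gamma subunits of the GABA-A receptor, were followed through the nuclei of mouse hippocampal field CA1 in a model of chronic epilepsy. The 4 genes were the rows of the count matrices that carry these symbols, out of 19 rows for GABA-A subunit genes and 30431 genes in all. The GABA-A receptor is a chloride channel assembled from several subunits that opens when it binds GABA and carries most fast inhibition in the brain. Its beta subunits take part in the GABA binding site and in receptor trafficking. Its gamma subunits shape benzodiazepine sensitivity and the clustering of receptors at synapses. In the hippocampus the subunit make-up differs between pyramidal cells, interneurons and glia.

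Both libraries came from male C57BL/6J mice that carried Calb1::Cre and a Tdtomato reporter. Calb1 is a gene of superficial CA1 pyramidal cells, and the labels do not say that nuclei were sorted on the reporter. The epilepsy mice were treated at 6 to 7 weeks of age with repeated kainate (5 mg/kg) until status epilepticus, a state of continuous seizures, which was ended with diazepam (4 mg/kg). Vehicle (saline or DMSO) was given to the control mice. Nuclei of the dissected dorsal CA1 were sorted 12 weeks later and profiled by droplet-based single-nucleus RNA sequencing. Each condition had 2 mice, and the labels do not say whether a library pools them.

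With 1 library for each condition, differences between conditions lack replication and were not tested. All intervals are 95% intervals that cover counting error only. Counts are unique molecular identifiers (UMIs), each standing for 1 captured RNA molecule. A level is the summed UMIs of a gene in a class of nuclei divided by the UMIs of all genes in that class, and scaled to the usual unit CPM. There were 3661 control nuclei with 11858162 UMIs in all and 3078 epilepsy nuclei with 7112131, and the median nucleus held 3447 and 2443 UMIs. The libraries shared 16 barcodes. Nuclei were grouped without any GABA-A subunit gene and named from marker genes. There were 2836 control and 2342 epilepsy nuclei of the CA1 pyramidal-like class, which matches the labelled tissue. Of their 10 markers, 6 (control) and 5 (epilepsy) were higher there than in any other class. All 9 interneuron markers, all 8 astrocyte markers and all 8 oligodendrocyte markers were highest in the class of that name in both libraries. The other names rest on fewer markers. In control and epilepsy these were 5 and 3 of 7 for granule-like nuclei and 4 and 8 of 8 for CA2/CA3 pyramidal-like nuclei. For microglia-like nuclei they were 7 and 6 of 7, for precursor-like nuclei 6 of 7 in both, and for Cajal-Retzius-like nuclei 5 and 4 of 7.

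The RefSeq promoters of the 4 genes (GRCm38.p6, 250 bases before to 50 bases after the start) are shown because they differ in base composition and motif letters, though 4 genes are too few to relate this to level. The 3 genes detected readily in neurons had GC-rich promoters, and Gabrg1, which was nearly undetected, had an AT-rich one. Capitals mark motif matches on either strand.
Gabrb1, chr5:71657671-71657970, plus strand: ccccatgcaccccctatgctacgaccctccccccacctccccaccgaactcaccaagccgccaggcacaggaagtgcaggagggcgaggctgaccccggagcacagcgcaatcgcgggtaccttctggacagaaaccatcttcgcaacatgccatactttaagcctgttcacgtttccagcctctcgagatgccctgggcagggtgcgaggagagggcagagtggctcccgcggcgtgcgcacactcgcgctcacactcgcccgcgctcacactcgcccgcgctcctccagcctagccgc
Gabrb2, chr11:42420190-42420489, plus strand: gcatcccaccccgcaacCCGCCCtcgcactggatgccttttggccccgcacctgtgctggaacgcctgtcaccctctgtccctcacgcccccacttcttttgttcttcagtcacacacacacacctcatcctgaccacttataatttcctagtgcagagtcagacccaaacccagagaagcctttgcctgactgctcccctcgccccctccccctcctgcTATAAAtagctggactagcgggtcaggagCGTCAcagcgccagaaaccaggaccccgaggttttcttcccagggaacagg
Gabrg1, chr5:70842568-70842867, minus strand: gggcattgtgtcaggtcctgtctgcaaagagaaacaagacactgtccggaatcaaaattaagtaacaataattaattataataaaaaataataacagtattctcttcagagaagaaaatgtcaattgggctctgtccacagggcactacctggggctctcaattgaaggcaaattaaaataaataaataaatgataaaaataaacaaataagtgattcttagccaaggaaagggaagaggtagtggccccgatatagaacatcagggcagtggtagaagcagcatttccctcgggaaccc
Gabrg3, chr7:57387166-57387465, minus strand: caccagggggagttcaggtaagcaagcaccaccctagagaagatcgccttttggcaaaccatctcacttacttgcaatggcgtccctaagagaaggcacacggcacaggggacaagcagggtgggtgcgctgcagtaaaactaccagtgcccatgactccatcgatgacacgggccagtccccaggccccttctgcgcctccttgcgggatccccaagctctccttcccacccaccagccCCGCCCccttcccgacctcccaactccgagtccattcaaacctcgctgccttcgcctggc
The GC content was 66.0% for Gabrb1, 61.0% for Gabrg3, 59.0% for Gabrb2 and 38.3% for Gabrg1, against a median of 52.7% over 32851 promoters of the same length. Only 7.45% of promoters had a lower GC content than that of Gabrg1. Each motif was searched on both strands, and no matches overlapped. The cyclic AMP response half-site was read as the letters TGACG. The box bound by the general factor Sp1 was read as GGGCGG. The element that binds the TATA-binding protein was read as TATAAA. Gabrb2 held 1 match to each, among them TATAAA starting 30 bases before the start and CGTCA starting 1 base before it. Gabrg3 held 1 Sp1 box, starting 10 bases before its start. Gabrb1 and Gabrg1 held none of these letters in the window. Of all promoters, 20.8% held TGACG, 35.7% GGGCGG and 13.6% TATAAA. A match is a description of letters and not a binding site. The promoter set held 3 starts for Gabrb2, 2 for Gabrb1 and 1 each for Gabrg1 and Gabrg3. Only 1 window per gene is shown, so the letters and GC content hold for that start.

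In the GENCODE M21 annotation of GRCm38 the 4 genes lay on 3 chromosomes. Gabrb1 spanned chr5:71658113-72149037 on the plus strand, and Gabrg1 chr5:70751047-70842617 on the minus strand. Gabrb2 spanned chr11:42419757-42629028 on the plus strand, and Gabrg3 chr7:56716465-57387188 on the minus strand. The Gabrb1 and Gabra4 gene models ran in opposite directions and shared 196 bases. The RefSeq promoter window of Gabrb1 lay with all 300 bases inside the Gabra4 model. The sources used here do not say whether the counting used strand, so reads from the shared bases cannot be told apart.

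In CA1 pyramidal-like nuclei Gabrb2 was lower in the epilepsy library, Gabrg3 was lower by less, and Gabrb1 was at nearly the same level. Control nuclei had Gabrb2 at 298 CPM (2893 UMIs) and epilepsy nuclei at 200 CPM (1165 UMIs), 1.49-fold lower, with a log2 ratio of -0.58 (-0.68 to -0.48). Gabrg3 stood at 698 CPM (6788 UMIs) in control and 582 CPM (3398 UMIs) in epilepsy nuclei, 1.20-fold lower, with a log2 ratio of -0.26 (-0.32 to -0.20). Gabrb1 stood at 1031 CPM (10018 UMIs) and 1050 CPM (6130 UMIs), with a log2 ratio of 0.03 (-0.02 to 0.07). The Gabrb1 ratio turned to -0.060 with TMM factors and -0.067 with DESeq2 size factors, which lower every pyramidal ratio by 0.09, so no direction is given for it.

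Gabrg1 gave 13 UMIs in control and 8 in epilepsy nuclei over all CA1 pyramidal-like nuclei (1.34 and 1.37 CPM). No pyramidal nucleus held more than 1 Gabrg1 UMI. At that depth a difference between the libraries was not detectable. A nucleus with a Gabrg1 UMI was seen in 0.458% of control and 0.342% of epilepsy pyramidal nuclei.

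None of the 3 members with at least 50 UMIs in CA1 pyramidal-like nuclei passed 1.5-fold, the threshold used to call a gene here. Of the 11081 genes measured there, 8.77% were at least 1.5-fold higher and 4.83% at least 1.5-fold lower. Gabrb2 lay so close to the threshold that its call changed with the setting. It was past 1.5-fold lower with TMM factors (-0.66), DESeq2 size factors (-0.67), nuclei thinned to 1000 UMIs (-0.587) and without the low-UMI pyramidal cluster (-0.59). Of all genes, 5.12% had a lower ratio than Gabrb2. For Gabrg3 that share was 20.2%, and for Gabrb1 it was 53.3%.

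Levels of different genes were compared per kb of gene span. That counts scale with gene span was not tested. On that scale the pyramidal order in the control library was Gabrb1 at 2.10 CPM per kb, Gabrb2 at 1.42, Gabrg3 at 1.04 and Gabrg1 at 0.0146. In the epilepsy library Gabrb1 was at 2.14 CPM per kb, Gabrb2 at 0.954, Gabrg3 at 0.868 and Gabrg1 at 0.0150. By CPM alone Gabrg3 was above Gabrb2, so the order of these 2 genes rests on the scale. The order of the 4 genes per kb was the same in both libraries, with a smaller gap between Gabrb2 and Gabrg3 in epilepsy.

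Pyramidal nuclei of the epilepsy library were shallower, with a median of 2567 UMIs against 3574, so shares of nuclei with a UMI were also compared after thinning each nucleus to 1000 UMIs. At full depth 59.6% of control and 37.1% of epilepsy pyramidal nuclei held a Gabrb2 UMI, and thinned 24.8% and 17.3%, leaving out 90 and 130 shallower nuclei. For Gabrg3 the full-depth shares were 81.5% and 67.1%, and the thinned shares 48.0% and 41.7%. For Gabrb1 they were 90.7% and 85.3%, and thinned 61.8% and 60.9%. After thinning, the 2 intervals were apart for Gabrb2 (23.2% to 26.4% against 15.7% to 18.9%) and Gabrg3 (46.1% to 49.9% against 39.7% to 43.8%), and overlapped for Gabrb1.

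Gabrb2 was lower in epilepsy in each of the 3 ranges of depth below 6000 UMIs, though its interval held 0 among the shallowest nuclei. Among pyramidal nuclei with 1500 to 3000 UMIs, Gabrb2 stood at 256 CPM in control and 194 CPM in epilepsy nuclei, a log2 ratio of -0.40 (-0.59 to -0.22). Among those with 3000 to 6000 UMIs it stood at 307 and 208 CPM, a log2 ratio of -0.56 (-0.71 to -0.42). Among those with 500 to 1500 UMIs the log2 ratio was -0.33 (-0.88 to 0.22). The same 3 ranges gave log2 ratios of -0.58, -0.14 and -0.29 for Gabrg3, from the shallowest to the deepest. Above 6000 UMIs, on 5 epilepsy and 36 control nuclei, Gabrb2 went the other way with an interval that held 0, and Gabrg3 stayed lower. Gabrb2 stood there at 310 CPM in control and 410 CPM in epilepsy nuclei (80 and 14 UMIs), a log2 ratio of 0.40 (-0.53 to 1.23), Gabrb1 had 0.83 (0.41 to 1.24) and Gabrg3 -0.15 (-0.86 to 0.49).

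The sublayers gave different pictures for the 2 genes. Deep-like pyramidal nuclei (649 control, 507 epilepsy) carried Ndst4 and Col11a1, and superficial-like nuclei (1196 control, 999 epilepsy) carried Calb1, Epha3 and Syt17. A remainder of 991 control and 836 epilepsy nuclei fitted neither name. In the control library all 3 measurable members were higher in deep-like nuclei. Gabrg3 stood at 883 CPM in deep-like and 604 CPM in superficial-like control nuclei, 1.46-fold higher in deep, with a superficial to deep log2 ratio of -0.55 (-0.63 to -0.46). Gabrb1 stood at 1258 and 914 CPM, with a log2 ratio of -0.46 (-0.53 to -0.39). Gabrb2 stood at 330 and 292 CPM, with a log2 ratio of -0.18 (-0.31 to -0.05). None of the 3 passed 1.5-fold in the control library, where 8.86% of 8734 genes were at least 1.5-fold higher in superficial-like nuclei and 5.46% at least 1.5-fold lower. The Gabrg3 ratio did pass it at resolution 2.0 of the clustering (-0.59) and with DESeq2 size factors (-0.60).

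In the epilepsy library the sublayer difference of Gabrg3 was smaller. Gabrg3 stood at 643 CPM in deep-like and 573 CPM in superficial-like epilepsy nuclei, with a superficial to deep log2 ratio of -0.17 (-0.29 to -0.04), an interval apart from that of the control library. Gabrb1 stood at 1338 and 905 CPM, with a log2 ratio of -0.56 (-0.65 to -0.47). Gabrb2 stood at 230 and 179 CPM, with a log2 ratio of -0.36 (-0.57 to -0.14). For Gabrb1 and Gabrb2 the control and epilepsy intervals overlapped. None of the 3 passed 1.5-fold in the epilepsy library, against 13.8% of 7233 genes higher and 6.46% lower. The Gabrb1 ratio did pass it with TMM factors (-0.63), DESeq2 size factors (-0.61) and at resolutions 0.5 and 2.0 (-0.60 and -0.64).

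Read across the conditions, Gabrg3 was lower in deep-like nuclei and in the remainder. In superficial-like nuclei its interval held 0 at the main settings and lay below 0 at several others. Its epilepsy to control log2 ratio was -0.46 (-0.57 to -0.34) for the deep class and -0.08 (-0.17 to 0.015) for the superficial class, a difference of 0.38 that could not be tested with 1 library per condition. The remainder had Gabrg3 at 689 and 553 CPM, a log2 ratio of -0.32 (-0.42 to -0.21), and 1 of its clusters (255 control, 222 epilepsy nuclei) had -0.45 (-0.66 to -0.25), near the deep value. That cluster was not deep-like by most markers. On the log2 scale against other pyramidal nuclei it had Calb1 at 0.70, Ndst4 at -1.10 and Col11a1 at -1.8, though Nr4a2 at 2.24. Epha3 (-0.20) and Syt17 (-0.24) kept it from the superficial name. The superficial ratio stayed above the deep ratio under all 7 other settings of nuclei, clusters, sublayer split and depth, by 0.25 to 0.36. At a finer clustering (resolution 2.0 in place of 1.0) the superficial ratio itself was -0.18 (-0.28 to -0.08), and the superficial to deep ratio of the epilepsy library was -0.34. The interval of the superficial ratio also lay below 0 with at least 500 genes (-0.24 to -0.018) and at resolution 0.5 (-0.18 to -0.004). The same held with TMM (-0.26 to -0.08) and DESeq2 factors (-0.27 to -0.08). With doublets kept, with subunit genes allowed in the clustering, after thinning and with the median split it held 0. Gabrb2 was lower in both sublayers, with a log2 ratio of -0.52 (-0.72 to -0.33) for the deep and -0.70 (-0.86 to -0.55) for the superficial class, and those intervals overlapped. In superficial-like nuclei it was 1.63-fold lower, the 1 case of a member past 1.5-fold in a sublayer. There 5.28% of 8978 genes were at least 1.5-fold lower and 7.37% at least 1.5-fold higher, and 3.07% had a lower ratio than Gabrb2. In deep-like nuclei no member passed 1.5-fold, against 7.74% of 6837 genes lower and 5.43% higher.

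The counts in single nuclei are given at full depth, where the epilepsy nuclei were shallower. Of the 1196 superficial-like control nuclei, 443 held no Gabrb2 UMI, 424 held 1, 216 held 2 and 113 held 3 or more. Of the 999 superficial-like epilepsy nuclei, 648 held none, 256 held 1, 79 held 2 and 16 held 3 or more. Deep-like control nuclei held a median of 3 Gabrg3 UMIs and deep-like epilepsy nuclei a median of 1, at median depths of 3705 and 2596 UMIs. For Gabrb1 the medians in deep-like nuclei were 4 and 3 UMIs, lower in epilepsy although its level per total UMIs was 1258 and 1338 CPM.

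**Figure D1:**
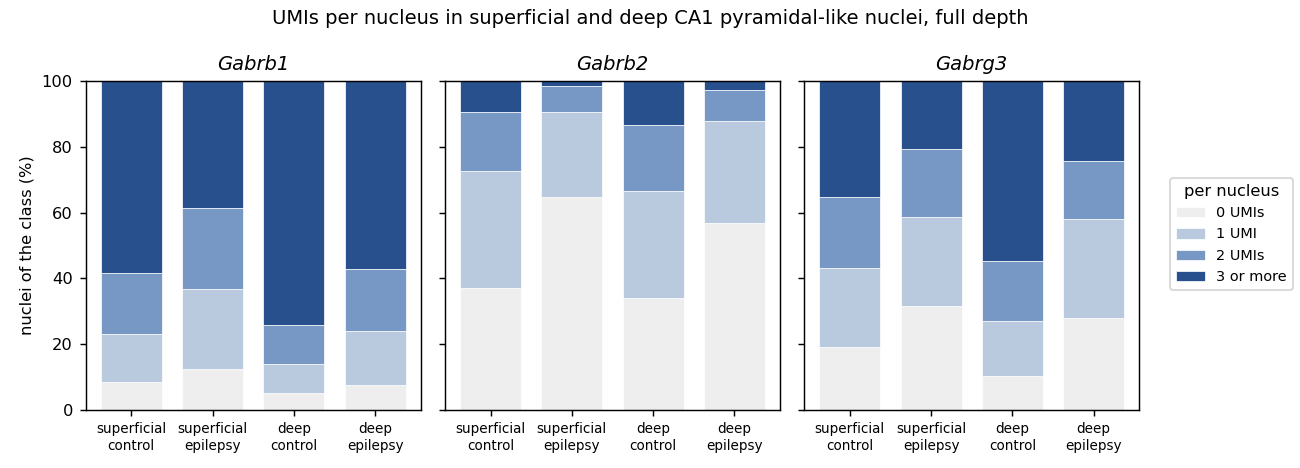
Share of superficial-like and deep-like CA1 pyramidal nuclei (%) with 0, 1, 2 or 3 and more UMIs of Gabrb1, Gabrb2 and Gabrg3 in the control and epilepsy libraries, at full depth. For Gabrb2 the class with 0 UMIs is larger in epilepsy in both sublayers, while epilepsy nuclei were also shallower (median 2567 against 3574 UMIs over all pyramidal nuclei).

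Pyramidal nuclei fell into 9 clusters, of which 7 had at least 20 nuclei in each library. Gabrb2 was lower in epilepsy in 7 of 7, with the interval below 0 in 6. Its level ranged from 232 to 349 CPM over these clusters in control and from 176 to 250 CPM in epilepsy nuclei. Gabrg3 was lower in 7 of 7, with the interval below 0 in 4 and log2 ratios from -0.53 to -0.04. Gabrb1 was higher in 4 and lower in 3, and its interval was above 0 in 1 and below 0 in none. These clusters share the 2 libraries and are not replicates.

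Interneuron-like nuclei (196 control, 143 epilepsy) had the highest Gabrg3 level of the main classes. Gabrg3 stood at 3192 CPM in control and 2727 CPM in epilepsy interneurons, 4.57-fold (4.35 to 4.80) and 4.69-fold (4.35 to 5.04) above the pyramidal level of the same library. Gabrb2 was also higher than in pyramidal nuclei, at 588 and 524 CPM, by 1.98-fold and 2.62-fold. Gabrb1 was lower, at 430 and 463 CPM, by 2.40-fold and 2.27-fold. Gabrg1 gave 2 and 1 UMIs.

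Between the libraries, interneuron Gabrg3 had a log2 ratio of -0.23 (-0.34 to -0.11). The ratio was -0.17 (-0.44 to 0.09) for Gabrb2 and 0.11 (-0.19 to 0.40) for Gabrb1. The Gabrb1 value turned to -0.20 after thinning. No member passed 1.5-fold in interneurons, against 5.61% of 3367 genes higher and 6.71% lower.

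Within interneurons the members differed more than between the libraries. A cluster led by Cacna2d1, Sv2c, Fgf13 and Pde11a (54 control, 37 epilepsy nuclei), with markers of neither the Lhx6 nor the Adarb2 side in excess, had Gabrg3 at 6781 and 6213 CPM. That was 9.71-fold and 10.7-fold the pyramidal level. Every nucleus of it but 1 held a Gabrg3 UMI, and the median was 15 UMIs in control and 12 in epilepsy nuclei, with up to 60 in 1 nucleus. Its Gabrb2 level, 1056 and 955 CPM, was the highest of any class as well.

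Lhx6-side interneurons, which include somatostatin cells, had Gabrg3 at 2307 and 2016 CPM, Gabrb2 at 492 and 496 CPM and Gabrb1 at 295 and 284 CPM. Adarb2-side interneurons had Gabrg3 at 1411 and 1074 CPM, Gabrb2 at 326 and 229 CPM and Gabrb1 at 760 and 796 CPM. The order of the 3 groups was thus the Sv2c-led cluster, the Lhx6 side and the Adarb2 side for Gabrg3 and Gabrb2. In the control library the Gabrg3 intervals of the 3 groups were apart, while those of Gabrb2 overlapped slightly between the Lhx6 side (416 to 577) and the Adarb2 side (249 to 419). For Gabrb1 the Adarb2 side was highest, and the other two overlapped.

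Dentate granule-like nuclei (153 control) had Gabrb1 at 1398 CPM (1267 to 1538), Gabrb2 at 398 CPM (330 to 476) and Gabrg3 at 163 CPM (120 to 215). Gabrb1 and Gabrb2 were 1.36-fold and 1.34-fold above control pyramidal nuclei, and Gabrg3 was 4.29-fold below. The epilepsy library held 14 such nuclei with a median of 743 UMIs, which gave 10, 2 and 1 UMIs of Gabrb1, Gabrb2 and Gabrg3. No ratio was made for them.

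Pyramidal RNA was also counted in nuclei of other classes, so each class was set beside a yardstick, the summed level of Slc17a7, Neurod6, Mpped1, Fibcd1, Wfs1 and Spink8, genes of pyramidal cells. This sum in oligodendrocyte-like nuclei was 59.8% of the pyramidal value among control and 56.7% among epilepsy nuclei. In microglia-like nuclei it was 97.1% and 60.4%, and in control interneurons and granule-like nuclei 26.6% each. The level of a member that pyramidal RNA would give at that share was then compared with the observed one. Whether the pyramidal RNA in a class is free RNA or comes from mixed droplets was not tested.

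By that yardstick the glial levels of Gabrb1, Gabrb2 and Gabrg3 were close to those computed from pyramidal RNA, save for Gabrb1 in astrocytes and for precursors with few UMIs. In oligodendrocyte-like nuclei (227 control, 310 epilepsy) the observed level was 0.873 to 1.40 times the level so computed over the 3 genes and both libraries. In microglia-like nuclei (36 and 38) it was 0.759 to 1.38 times. Gabrg3 in control granule-like nuclei was at 0.876 times. Gabrg3 in interneurons was at 17.2 and 19.5 times, Gabrb2 there at 7.44 and 10.9 times, and Gabrb1 there at 1.57 and 1.83 times. Oligodendrocyte precursor-like nuclei (24 and 38) gave between 1 and 11 UMIs of each of these genes. Gabrg1 gave no UMI in oligodendrocyte-like nuclei, which allows a share of nuclei with a Gabrg1 UMI of up to 1.32% in control and 0.968% in epilepsy nuclei. At their median depths of 848 and 614 UMIs this sets no limit on the share of nuclei that express it.

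Astrocyte-like nuclei (29 control, 31 epilepsy) had the highest Gabrb1 level of all classes. Control nuclei had Gabrb1 at 3249 CPM (2732 to 3836) and epilepsy nuclei at 4186 CPM (3459 to 5021), which was 3.15-fold and 3.99-fold the pyramidal level. It was 7.15 and 12.0 times the level computed from pyramidal RNA, and 25 of 29 and 28 of 31 nuclei held a Gabrb1 UMI at median depths of 1032 and 877 UMIs. Gabrb2 gave 7 and 1 UMIs there, and Gabrg3 16 and 7. Gabrg1 gave 1 UMI in control and 4 UMIs in epilepsy nuclei, the latter at 144 CPM (39.3 to 370), 105-fold (23.2 to 393) the pyramidal level of that library.

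The Gabrb1 ratio of the libraries in astrocyte-like nuclei was 0.37 (-0.003 to 0.73) on the log2 scale, and it did not keep its direction. TMM and DESeq2 scaling, which shift astrocyte ratios by -0.21 and -0.30, gave 0.16 and 0.06. Thinned to 1000 UMIs, which left 17 and 11 nuclei, it was -0.66 (-1.34 to -0.02).

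**Figure D2:**
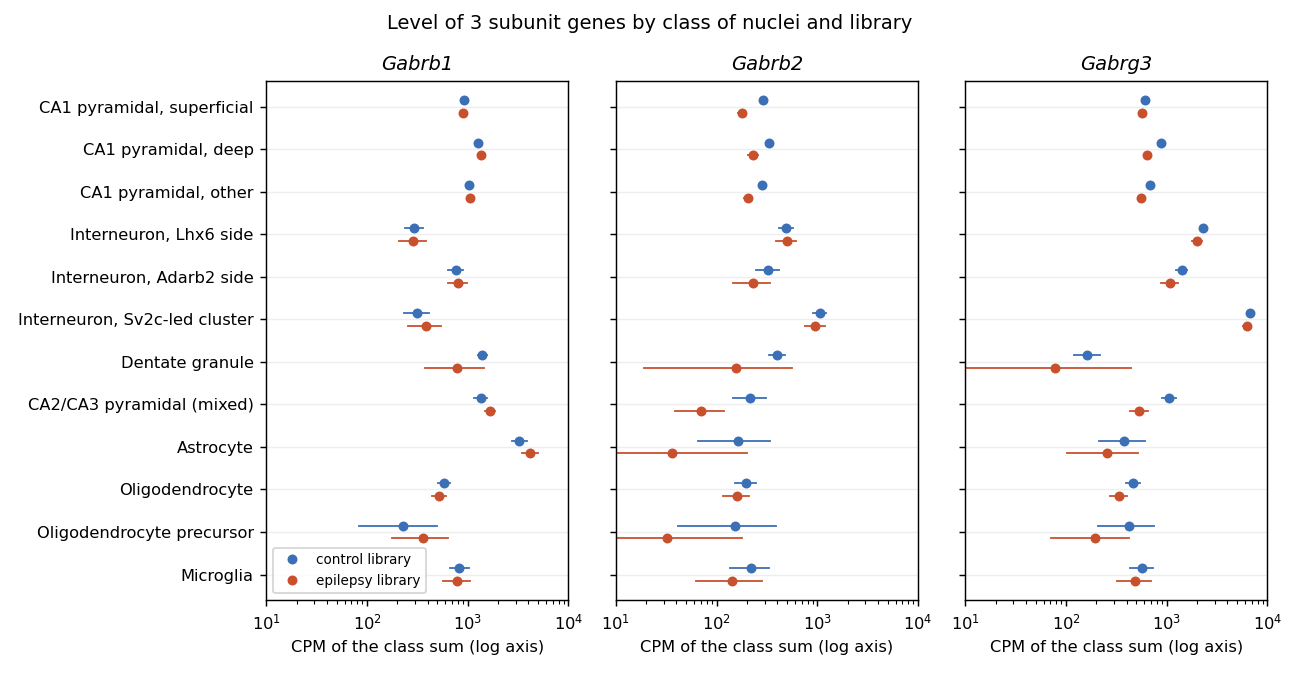
Level of Gabrb1, Gabrb2 and Gabrg3 (CPM of the class sum, log axis) in 12 classes of nuclei, with the control library in blue and the epilepsy library in red. Points are class sums with 95% Poisson intervals, some of which run below the axis. Gabrb1 is highest in astrocyte-like nuclei (3249 and 4186 CPM), and Gabrg3 and Gabrb2 are highest in the Sv2c-led interneuron cluster. Gabrg1 is left out because most classes held 0 to 3 of its UMIs.

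A class named CA2/CA3 pyramidal-like (42 control, 64 epilepsy nuclei) showed Gabrb2 at 216 and 70.4 CPM (31 and 14 UMIs), a log2 ratio of -1.62 (-2.64 to -0.66). Gabrg3 there stood at 1052 and 533 CPM, a log2 ratio of -0.98 (-1.35 to -0.61), and Gabrb1 at 1338 and 1659 CPM, a log2 ratio of 0.31 (0.05 to 0.58). The class was a mixture. At resolution 2.0, 21 of its 42 control nuclei and 12 of its 64 epilepsy nuclei moved to the interneurons, and the Gabrg3 ratio became -0.79 (-1.59 to 0.03). TMM and DESeq2 scaling shifted its ratios by 0.12 and 0.21. The ratios of this class thus cannot be told apart from its make-up.

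Over the 11 classes with at least 20 nuclei in each library, sublayers and interneuron groups taken singly, Gabrg3 was lower in epilepsy in 11, with the interval below 0 in 5. Gabrb2 was lower in 10, with the interval below 0 in 4, and stood at a log2 ratio of 0.01 on the Lhx6 side. Gabrb1 was higher in 7 and lower in 4, with the interval above 0 in 2. The mixed CA2/CA3 pyramidal-like class is among the 11, and for each of the 3 genes it gave 1 of the intervals that leave out 0. The other Gabrb1 interval above 0, that of deep-like nuclei (0.003 to 0.17), held 0 with TMM and DESeq2 factors. The classes share 2 libraries and are not independent. Oligodendrocyte-like and microglia-like Gabrg3 levels were close to those computed from pyramidal RNA (1.10 and 1.01 times, and 0.838 and 1.38 times). Whether these classes repeat the pyramidal ratios was not tested. The precursor ratio rests on 11 and 6 Gabrg3 UMIs. How often other genes are lower in all 11 classes is not given here. In oligodendrocyte-like nuclei the Gabrg3 ratio of -0.46 turned to 0.026 among nuclei with at least 500 detected genes and to 0.55 after thinning.

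**Figure D3:**
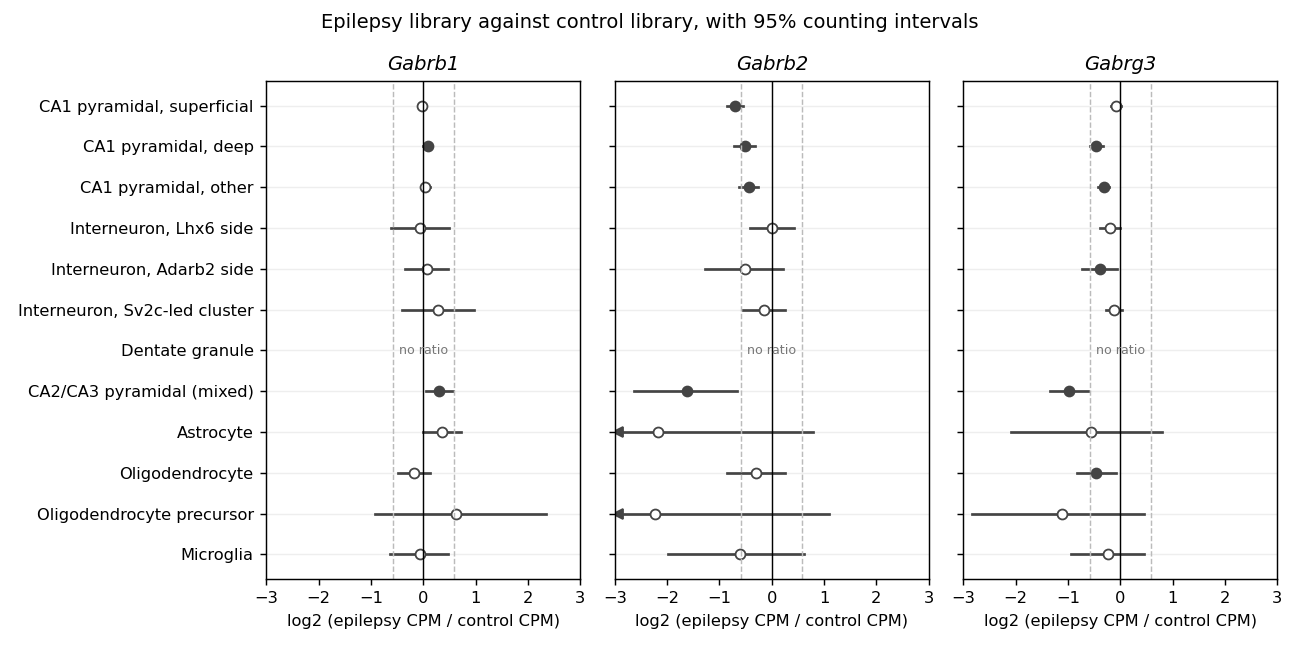
Log2 ratio of epilepsy to control CPM for Gabrb1, Gabrb2 and Gabrg3 in 12 classes with 95% counting intervals. Filled points have intervals that leave out 0, arrows mark intervals that run past the axis, dashed lines mark 1.5-fold, and no ratio was made for granule-like nuclei. Gabrb2 and Gabrg3 lie at or below 0 nearly throughout, with Gabrb2 on the Lhx6 side at 0.01, and Gabrb1 lies on both sides of 0.

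The balance of the beta genes followed from these levels. Gabrb2 made up 22.4% (21.7% to 23.1%) of the Gabrb1 and Gabrb2 UMIs of control pyramidal nuclei and 16.0% (15.1% to 16.8%) in epilepsy. Corrected for gene span, its shares were 40.4% and 30.8%. Of the UMIs of all 3 beta rows of the matrix, Gabrb2 made up 11.2% in control and 8.26% in epilepsy pyramidal nuclei. Gabrb1 made up 38.8% and 43.4% of that total. The Gabrb2 share was smaller in epilepsy in both sublayers, at 20.8% and 14.7% of the pair in deep-like nuclei and 24.2% and 16.5% in superficial-like nuclei.

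By UMIs the balance was opposite in the Sv2c-led cluster and on the Lhx6 side of the interneurons, though not on the Adarb2 side. Over all interneurons Gabrb2 made up 57.8% (53.9% to 61.6%) of the pair in control and 53.1% (47.5% to 58.6%) in epilepsy nuclei. These intervals overlapped, and only the control one lay wholly above an even share. The share was 77.2% and 71.4% in the Sv2c-led cluster, 62.5% and 63.6% on the Lhx6 side and 30.0% and 22.3% on the Adarb2 side. In astrocyte-like nuclei Gabrb1 made up 95.2% and 99.1% of the pair.

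**Figure D4:**
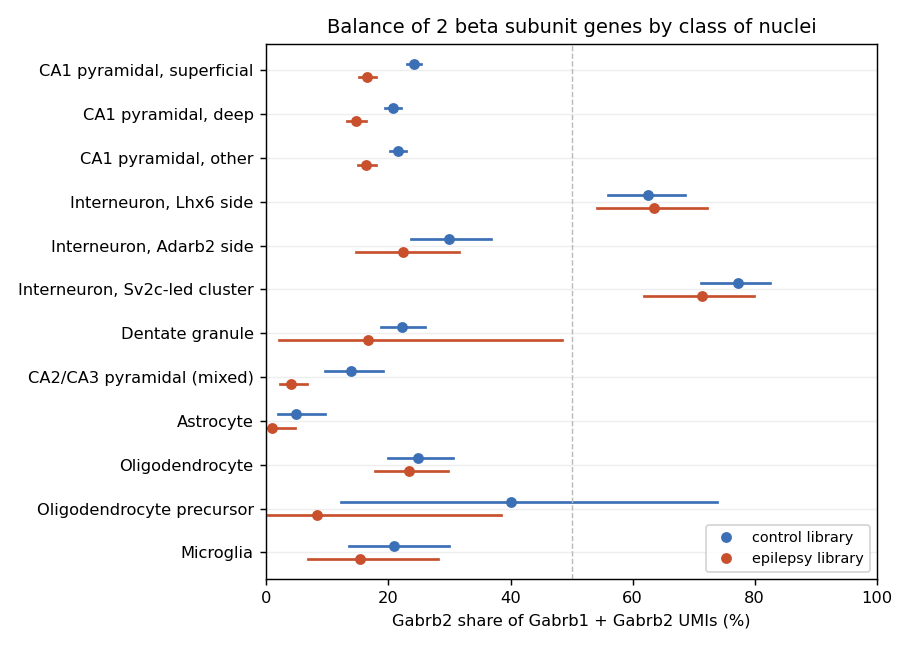
Gabrb2 share of the summed Gabrb1 and Gabrb2 UMIs (%) in 12 classes of nuclei, control library in blue and epilepsy library in red, with 95% Clopper-Pearson intervals. The CA1 pyramidal groups lie between 14.7% and 24.2%, and the CA2/CA3 pyramidal-like class at 13.9% and 4.07%, each with epilepsy below control, while the Lhx6 side and the Sv2c-led cluster lie above 50%.

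Gabrg3 took most of the gamma UMIs in pyramidal and interneuron-like nuclei, though not in granule-like ones. Of the UMIs of all 3 gamma rows, Gabrg3 made up 82.4% (81.6% to 83.2%) in control and 85.3% (84.2% to 86.4%) in epilepsy pyramidal nuclei, and Gabrg1 0.158% and 0.201%. Corrected for gene span, the Gabrg3 shares were 38.8% and 44.0%, since it is the longest of the 4 genes here at 671 kb. Its share of UMIs was 94.9% and 96.3% in interneurons and 39.2% (30.6% to 48.3%) in control granule-like nuclei. The higher share in epilepsy was not seen throughout. In superficial-like nuclei it was 79.7% (78.3% to 81.1%) and 84.7% (83.0% to 86.4%), while in deep-like nuclei, where the Gabrg3 level differed most among the sublayers, it was 85.6% in both libraries. The control and epilepsy intervals overlapped in interneurons. The share was lower in epilepsy on the Adarb2 side (93.9% and 90.0%) and in CA2/CA3 pyramidal-like nuclei (90.4% and 85.5%), with overlapping intervals.

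Other genes of the receptor were read from 3 lists, described by counts beside all genes of the class. The list of alpha and other GABA-A subunits had 6 of 13 genes with at least 50 UMIs in CA1 pyramidal-like nuclei. None passed 1.5-fold in either direction, 5 of 6 ratios were below 0, and the median log2 ratio was -0.31, against 0.00174 over all genes with 49.8% of ratios below 0. Gabra2, Gabra4 and Gabra5, chosen for mention after their values were seen because they neighbour members, had log2 ratios of -0.16, -0.32 and -0.30. In interneurons 5 of these genes could be measured, all with ratios below 0, against 49.2% of all genes in that class. Of the 5, 3 were past 1.5-fold lower, Gabra3, Gabra4 and Gabra5, against 6.71% of all genes there. These 3 rest on 12 to 17 epilepsy UMIs each, and the intervals of Gabra3 (-1.91 to 0.10) and Gabra4 (-1.53 to 0.16) held 0. The calls of listed and of all genes add 0.5 UMI to each count. Without it Gabra2 was also past 1.5-fold lower in interneurons, at 137 and 90.8 CPM, a log2 ratio of -0.595 (-1.24 to 0.015).

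Scaffold and partner genes of the inhibitory synapse (13 of 14 measured in pyramidal nuclei) had 0 genes past 1.5-fold higher and 1 lower, against 8.77% and 4.83% of all genes, with a median log2 ratio of -0.06. The gene was Insyn1, a component of the inhibitory synapse, at 4.22 and 1.88 CPM (41 and 11 UMIs), a log2 ratio of -1.16 (-2.27 to -0.18). The list of receptor trafficking and beta subunit binding genes (21 of 21 measured) had 1 higher and 1 lower, with a median of 0.06. At 1 of 13 and 1 of 21 genes, the lower counts of these 2 lists are near the share of all genes. Akap5, named later because it lay at the threshold, had a log2 ratio of -0.587 (-1.19 to -0.014). It was past 1.5-fold lower only without the added 0.5 UMI and is not in the count. Gabarap, which binds gamma subunits, was higher at 5.76 and 9.59 CPM (56 UMIs in each library), a log2 ratio of 0.74 (0.17 to 1.30). Its relative Gabarapl1 was lower at 9.98 and 5.65 CPM (97 and 33 UMIs), a log2 ratio of -0.82 (-1.44 to -0.24).

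The genes with the profile most like each member were found by the Pearson correlation of log2(CPM + 1) over 16 profiles, the main classes with at least 10 nuclei in each library, among 7440 genes with at least 200 UMIs. For Gabrb2 they were Cntn5 (r = 0.86), Epha3 (0.86) and Upp2 (0.84), and for Gabrg3 Robo1 (0.90), Arhgap26 (0.87) and Garnl3 (0.84). For Gabrb1 they were Emx2os (0.83), Tbc1d10a (0.82) and Tspan7 (0.82). For Gabrg1 they were Tspan7 (0.90), Hdac8 (0.84) and Prex2 (0.82), on few Gabrg1 UMIs. Among the members, Gabrb2 and Gabrg3 had r = 0.56, Gabrb1 and Gabrg1 0.73, and Gabrb1 and Gabrb2 -0.25. The profiles share libraries and depth, so these values are descriptions.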

How the data were processed

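The deposited files hold raw UMI counts per gene and nucleus, whole numbers with no normalization. Per the labels' protocols, 15000 sorted nuclei were loaded per sample and 3′ v2 chemistry was used. The submitters' processing notes name Cell Ranger 2.2.0, FastQC and the build GRCm38 (mm10). The annotation, barcode selection and counting of intronic or antisense reads are not given in the sources used here. Of the 30431 identifiers, 30330 occur in GENCODE M21, which gave gene spans.

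Members, lists and thresholds were chosen with earlier results of these data known. Filters of at least 200 genes and less than 5% mitochondrial UMIs removed 0 nuclei. Scrublet's automatic threshold marked 4 nuclei in each library, so the highest 3% of doublet scores were removed (110 control, 92 epilepsy nuclei). Counts scaled to 10000 UMIs were clustered in scanpy 1.11.5 with 2000 variable genes standardised within each library, 30 components, 20 neighbours and leidenalg 0.10.2 at resolution 1.0. GABA-A subunit genes were left out of the clustering genes. Clusters took the class of their markers. An interneuron cluster was given a side where its marker scores differed by at least 1, a rule set after seeing them.

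Levels carry exact Poisson intervals, ratios exact conditional binomial intervals and shares Clopper-Pearson intervals. A ratio needed 20 nuclei in each library, save in the deepest range of UMIs. Calls of listed and of all genes past 1.5-fold added 0.5 UMI to each count, while the printed ratios did not. Named genes are the members, up to 3 listed genes a direction past 1.5-fold in pyramidal nuclei, and 3 genes per member by profile; others are said to be chosen later. Values of other beta and gamma subunits are not reported here. Alternatives used edgeR 4.0.16 and DESeq2 1.42.0 scaling factors in R 4.3.3. On simulated Poisson counts of 11068 genes for the pyramidal comparison, 96.4% of 195 genes changed 2-fold and 2.01% of unchanged genes passed 1.5-fold, and 95.6% of intervals held the true ratio. These counts had no spread among nuclei or mice, the model on which the intervals are built. The simulation thus checks the calculation and does not show how the intervals or calls hold for real nuclei or mice.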

Additional observations from a re-analysis of the deposited data

How the results depend on the processing

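No paired analysis was possible because each condition is 1 library, and no library could be left out for the same reason. For the main results, 155 values under an alternative stayed within the interval (for counts, within 1.5 times), 50 moved further, and none whose interval left out 0 changed sign. In other classes 121 stayed, 12 moved and 2 such values changed sign, both of Gabrg3 in oligodendrocyte-like nuclei, at 0.026 with at least 500 genes and 0.55 when thinned. In pyramidal nuclei the epilepsy to control log2 ratio of Gabrb2 ranged from -0.67 to -0.33 over 13 alternatives. The range above 6000 UMIs, with 5 epilepsy nuclei, was not counted among the alternatives. There the Gabrb2 ratio had the other sign, at 0.40 (-0.53 to 1.23). TMM and DESeq2 scaling gave -0.060 and -0.067 for Gabrb1 and -0.35 and -0.36 for Gabrg3. The ranges of UMIs per nucleus, chosen after seeing the data, gave from the shallowest -0.22, 0.087 and 0.082 for Gabrb1, -0.33 and -0.40 in the first ranges for Gabrb2, and -0.58 and -0.14 in the first ranges for Gabrg3. Without the low-UMI pyramidal cluster, also chosen after seeing the data, Gabrb2 was at -0.59. A split at the median marker score, uneven at 1166 to 1670 control nuclei because of ties, gave superficial to deep log2 ratios of -0.28 and -0.23 for Gabrb1 in the control and epilepsy libraries and -0.37 for Gabrg3 in the control library. For Gabrg3 in the epilepsy library, -0.17 became -0.29 with at least 500 genes and -0.34 at resolution 2.0.

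Shares depend on the denominator. Per kb of gene span, the shares of the beta total in control and epilepsy pyramidal nuclei were 31.0% and 36.0% for Gabrb1 and 21.0% and 16.0% for Gabrb2, and those of the gamma total 38.8% and 44.0% for Gabrg3 and 0.545% and 0.759% for Gabrg1. Over the members alone they were 77.6% and 84.0% for Gabrb1, 22.4% and 16.0% for Gabrb2 and 99.8% and 99.8% for Gabrg3. Thinned, the shares of nuclei with a UMI were 61.8% and 60.9% for Gabrb1, 24.8% and 17.3% for Gabrb2, 0.182% and 0.136% for Gabrg1 and 48.0% and 41.7% for Gabrg3. Of all genes in pyramidal nuclei 972 were past 1.5-fold higher and 535 lower. These became 1977 and 862 with a minimum of 20 UMIs, 238 and 177 with 200 UMIs, and 405 and 114 at 2-fold. In the lists, a minimum of 20 UMIs added 1 higher alpha or other subunit gene. A minimum of 200 UMIs left 0 scaffold genes lower and 0 trafficking genes in either direction, and 2-fold left 0 trafficking genes in either direction. Depth limits Gabrg1 throughout and all members in granule-like epilepsy nuclei, astrocytes and precursors.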

Other observations

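Among the chromosomal neighbours Gabra4 and Gabra5, only Gabra4 in superficial-like nuclei had an interval apart from that of the member beside it. Gabra4, whose gene model overlaps the start of Gabrb1, stood at 128 CPM in control and 75.3 CPM in epilepsy superficial-like nuclei, a log2 ratio of -0.76 (-1.01 to -0.52), where Gabrb1 had -0.01 (-0.09 to 0.06). In deep-like nuclei Gabra4 had a log2 ratio of -0.19 (-0.45 to 0.07), and Gabrb1 0.09 (0.003 to 0.17), with overlapping intervals. Gabra5, whose gene model ends 20483 bases from the start of Gabrg3, had a log2 ratio of -0.28 (-0.50 to -0.07) for the deep and -0.32 (-0.50 to -0.14) for the superficial class. Gabrg3 had -0.46 (-0.57 to -0.34) and -0.08 (-0.17 to 0.015), and the intervals of the 2 genes overlapped in both classes. These genes were chosen after their values were seen, and their differences from the members were not tested.

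There were 8 control and 6 epilepsy Cajal-Retzius-like nuclei. They held 17 Gabrg3 UMIs in the control library, 13 of them in 1 nucleus, and 3 in the epilepsy library.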
